A study of Mus musculus with 15 samples.

Results

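Nodal, Tdgf1, Lefty1, Lefty2, Skil, Smad7, Id1, Id2, Id3 and Bambi are 10 genes of the NODAL and BMP pathways, out of 34372 genes in a table of mouse TPM values (transcript abundance scaled to length and to a fixed sum per library) from pluripotent stem cells. They were taken by symbol as the ligand, co-receptor, feedback inhibitors and targets of these pathways, and all 10 were found. The study set embryonic germ cells (EGC), lines derived from primordial germ cells of the embryo, beside genetically matched embryonic stem cells (ESC), lines from the early embryo. The table header gives 6 labels: E11.5 XX EGC (2 libraries, EGC 7 and 9), E11.5 XO EGC (1 library, EGC 8), E12.5 XY EGC (3 libraries, EGC 1 to 3), E11.5 XY EGC (3 libraries, EGC 4 to 6), XX ESC (3 libraries, ESC 1 to 3) and XY ESC (3 libraries, ESC 4 to 6). E11.5 and E12.5 are days of embryonic development, and XX, XO and XY are sex chromosome sets. A blank header cell was read as carrying the label at its left. All 15 libraries were labelled passage 6. All cells had been grown with 2i-LIF medium and then on feeders of mouse embryonic fibroblasts in serum with LIF, and had been sorted for the surface antigen SSEA1. Polyadenylated RNA was sequenced as paired ends. Strain, allele and line names are not given in the sources used here. Nothing says whether libraries under 1 label are separate lines or clones of 1 line, so the p-values below measure only the spread between such libraries, which may be technical.

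NODAL is a secreted ligand of the TGF-beta family that binds activin receptors together with the co-receptor TDGF1 (CRIPTO) and acts through SMAD2 and SMAD3, with FOXH1 as a DNA-binding partner. Its targets include its own gene and the genes of its secreted antagonists LEFTY1 and LEFTY2, so the pathway carries built-in negative feedback, as do SMAD7, which blocks receptor signalling, and SKIL (SnoN), which represses SMAD targets. BMP ligands act through SMAD1 and SMAD5 and turn on the Id genes, whose products bind and inactivate basic helix-loop-helix transcription factors. In mouse ESC grown with serum and LIF, BMP signals and Id proteins are known to hold back differentiation, and NODAL signalling is active without being needed for self-renewal.

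Each library summed to 1000000 TPM, with 12498 to 13041 genes at 1 TPM or more and a mitochondrial share of 4.92% to 7.85%. No read counts were used, so depth is unknown. Pluripotency markers were high in every library, with Pou5f1 at 1024 to 1714 TPM and Nanog at 419 to 943 TPM. Fut4, on the same list, was low at 0.0780 to 0.609 TPM. The 16 feeder fibroblast markers summed to 18.6 to 88.9 TPM, led by Mmp2 and Bgn, and Lum was at 0 in 6 libraries and Dcn in 1. Primitive endoderm markers summed to 11.3 to 26.02 TPM, mesoderm markers to 6.81 to 12.6 TPM and germ cell markers to 98.2 to 205 TPM.

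Promoters are shown because the genes are read here as SMAD targets, and these are the windows in which SMAD motifs were looked for. RefSeq promoters of build GRCm38.p6, each running from 250 bases before to 50 bases after the RefSeq start, were matched for 4 of the 10 genes. They are Nodal at chr10:61417722-61418021 on the plus strand, Tdgf1 at chr9:110946109-110946408 on the minus strand, Id2 at chr12:25096043-25096342 on the minus strand and Id3 at chr4:136143572-136143871 on the plus strand. Each is written 5′ to 3′ along its gene, and capitals mark a motif match on either strand.
Nodal: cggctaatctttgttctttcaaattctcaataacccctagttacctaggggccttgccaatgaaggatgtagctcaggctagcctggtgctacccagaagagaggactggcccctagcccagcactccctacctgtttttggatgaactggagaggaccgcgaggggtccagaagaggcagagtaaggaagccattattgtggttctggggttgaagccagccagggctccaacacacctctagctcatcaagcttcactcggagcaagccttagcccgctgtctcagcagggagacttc
Tdgf1: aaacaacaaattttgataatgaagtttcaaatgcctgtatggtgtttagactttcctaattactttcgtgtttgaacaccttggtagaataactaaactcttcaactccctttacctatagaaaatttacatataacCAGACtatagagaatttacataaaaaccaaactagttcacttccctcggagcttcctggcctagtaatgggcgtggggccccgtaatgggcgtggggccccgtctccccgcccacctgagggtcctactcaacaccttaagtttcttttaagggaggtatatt
Id2: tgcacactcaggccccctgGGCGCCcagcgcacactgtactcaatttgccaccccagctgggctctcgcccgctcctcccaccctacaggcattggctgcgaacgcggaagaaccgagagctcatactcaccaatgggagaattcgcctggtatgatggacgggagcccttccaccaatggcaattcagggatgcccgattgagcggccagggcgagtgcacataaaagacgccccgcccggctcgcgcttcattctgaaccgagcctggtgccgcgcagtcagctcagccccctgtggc
Id3: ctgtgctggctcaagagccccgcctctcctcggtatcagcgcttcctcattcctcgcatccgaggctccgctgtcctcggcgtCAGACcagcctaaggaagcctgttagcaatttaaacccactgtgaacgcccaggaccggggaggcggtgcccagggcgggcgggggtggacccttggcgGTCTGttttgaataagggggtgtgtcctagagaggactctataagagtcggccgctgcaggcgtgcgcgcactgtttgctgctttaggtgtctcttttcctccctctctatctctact
Id3 held 2 matches to the SMAD binding element CAGAC, at offsets -167 and -68 from its start, the second on the opposite strand. Tdgf1 held 1 CAGAC match, at offset -113, and Id2 held 1 match to GGCGCC, the GC-rich box bound by BMP SMADs, at offset -231. Nodal held neither, and none of the 4 windows held the FOXH1 motif AATNCACA. The search covered both strands, and no matches overlapped one another. Over 32851 mouse promoters of the same length, 49.6% held CAGAC, 11.9% held GGCGCC and 3.60% held AATNCACA, so a CAGAC match is common by itself.

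By GENCODE M21 on GRCm38, Nodal spans chr10:61417972-61425338 and Skil chr3:31095058-31122577, both on the plus strand, and Tdgf1 spans chr9:110939603-110946158 on the minus strand. Id1 spans chr2:152736251-152737410 and Id3 chr4:136143497-136145755, both on the plus strand, and Id2 spans chr12:25093799-25097140 on the minus strand. The promoter windows of Id2 and Id3 lie wholly within these gene spans, so their offsets count from a RefSeq start inside the GENCODE gene. The values below are for whole genes.

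The 10 genes stood at very different levels, and all 10 reached 1 TPM in every library. Because TPM is scaled by transcript length, levels can be set beside each other between genes. Tdgf1 was by far the most abundant, at a median of 1112 TPM over the 15 libraries. Its mean was above that of 99.6% of all genes in the table. Skil (56.5 TPM), Lefty1 (55.1 TPM), Nodal (39.3 TPM), Lefty2 (34.8 TPM), Smad7 (31.2 TPM), Id2 (24.3 TPM) and Id1 (14.6 TPM) had intermediate medians. Id3 (4.89 TPM) and Bambi (3.08 TPM) were lowest. Between the label with the highest mean and the label with the lowest, Lefty2 spanned 5.23-fold, Id3 4.16-fold, Id2 3.52-fold and Lefty1 2.94-fold, while Nodal spanned 1.49-fold and Id1 1.57-fold.

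**Figure D1:**
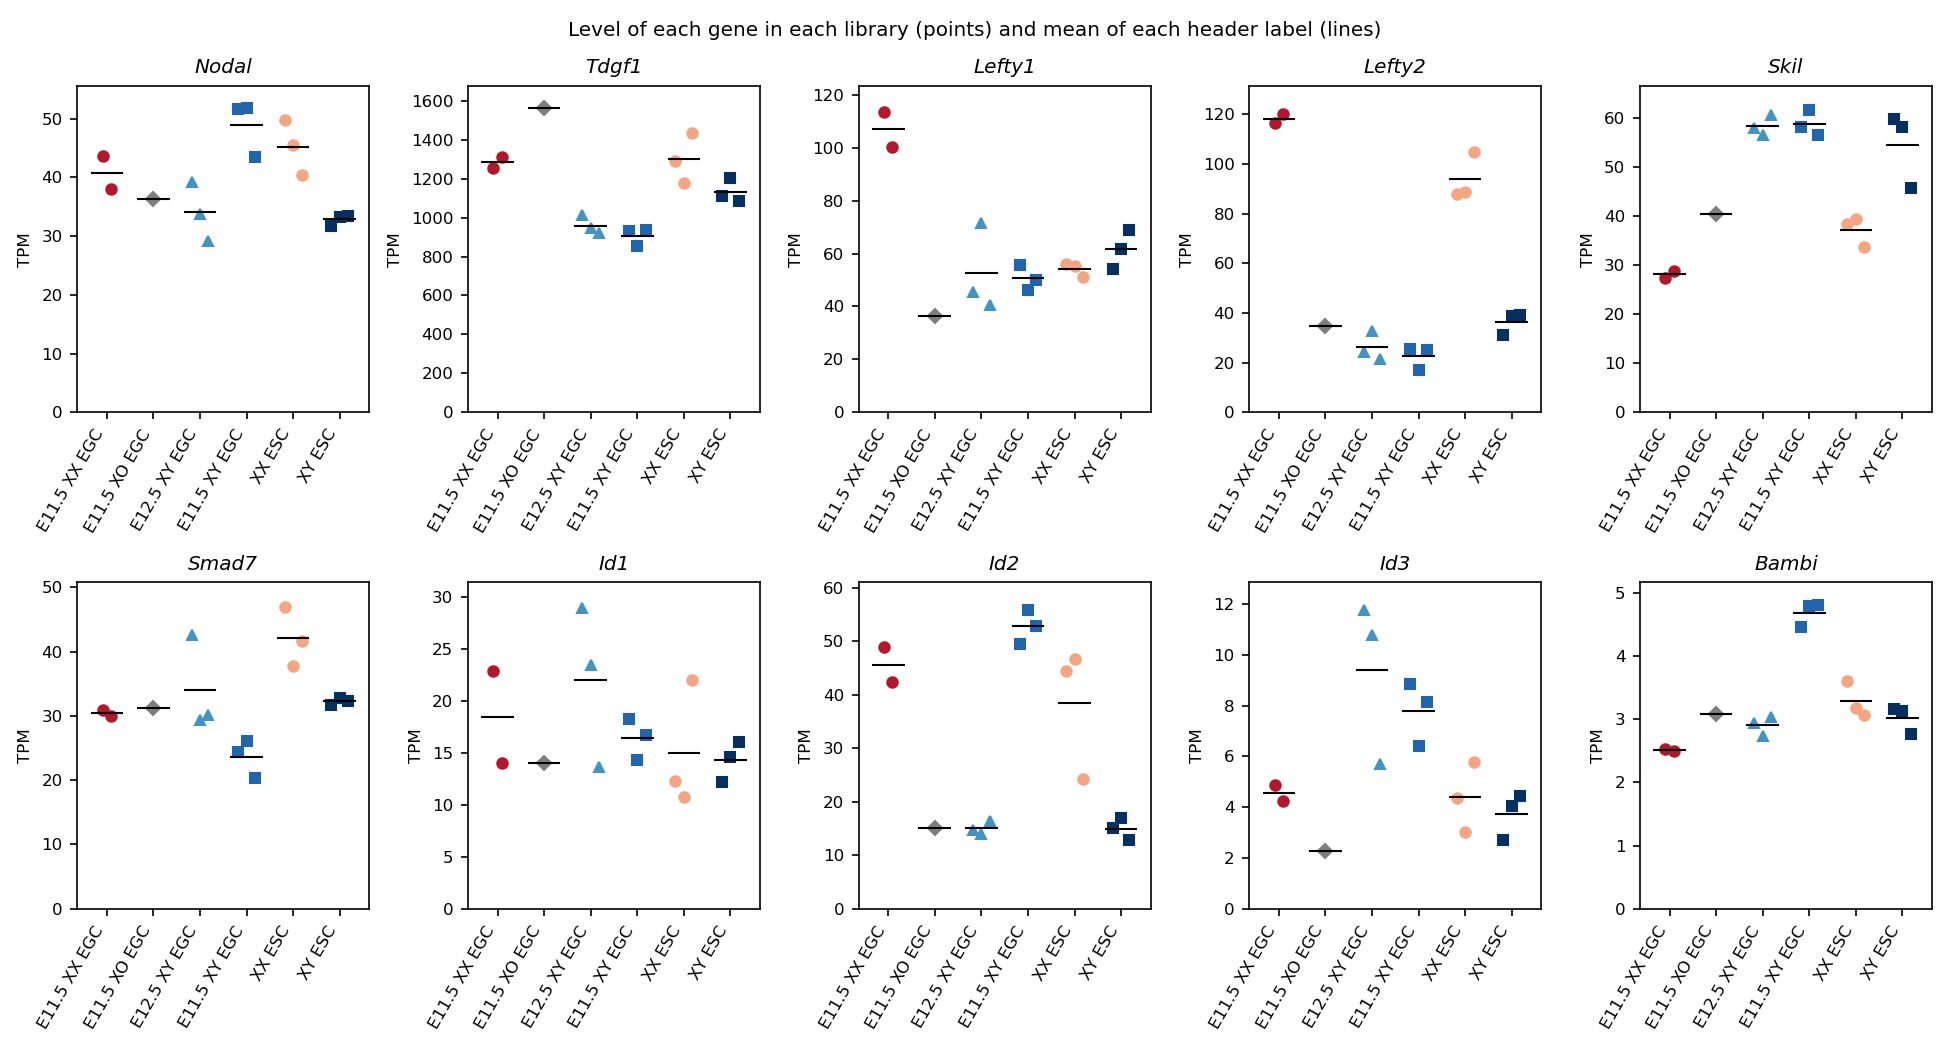
TPM of each of the 10 genes (y axis, from 0) under each header label (x axis), with 1 point per library and a line at the label mean. Lefty2 sits at 116 to 120 TPM in E11.5 XX EGC and 87.8 to 105 TPM in XX ESC, above every XO and XY library, and Id2 sits at 12.9 to 16.99 TPM in E11.5 XO EGC, E12.5 XY EGC and XY ESC, below every other library.

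The order of the labels differed from gene to gene. For Nodal, the label means ran from 49.0 TPM in E11.5 XY EGC through 45.2 TPM in XX ESC, 40.8 TPM in E11.5 XX EGC, 36.2 TPM in the XO library and 34.02 TPM in E12.5 XY EGC to 32.8 TPM in XY ESC, and neighbours in that order overlapped except E11.5 XX EGC and the XO library. For Lefty2, the order was E11.5 XX EGC, XX ESC, XY ESC, the XO library, E12.5 XY EGC and E11.5 XY EGC, with XY ESC overlapping the XO library and both XY EGC labels overlapping each other. For Skil the order was nearly the reverse, with both XY EGC labels and XY ESC overlapping at the top, then the XO library, XX ESC and E11.5 XX EGC, none of which overlapped its neighbour. For Id2, the upper range was formed by E11.5 XY EGC (52.8 TPM), E11.5 XX EGC (45.7 TPM) and XX ESC (38.5 TPM), and the XO library, E12.5 XY EGC and XY ESC had means of 15.1, 15.0 and 15.0 TPM that overlapped. For Id1, neighbours in the order overlapped throughout, from 22.0 TPM in E12.5 XY EGC to 14.1 TPM in the XO library.

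XX ESC were set against XY ESC, the karyotype contrast that the title of the study is about. Of the 10 genes, 5 were higher in XX ESC and 1 was lower in limma's moderated test on log2(TPM + 1) with Benjamini-Hochberg adjustment at 0.05. Over all 13879 genes tested, 46.6% passed the same threshold (27.3% higher and 19.3% lower), so a count of 6 is not read as a property of these genes. In 5 of the 10 the libraries did not overlap, against 54% of all genes. The median difference was 0.19 over the 10 genes and 0.05 over all genes tested, on the log2 scale. All differences below are on that scale, and all folds below are ratios of TPM + 1. Both understate the change, most of all for genes near or under 1 TPM. In bulk RNA, fewer cells of a type and less RNA per cell cannot be told apart.

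Lefty2, the second secreted NODAL antagonist, had 87.8, 88.5 and 105 TPM in XX ESC, against 30.9, 38.9 and 39.2 TPM in XY ESC. All 3 XX libraries stood well above all 3 XY libraries. The difference was 1.35 ± 0.16 (SE), or 2.54-fold (limma, adjusted p = 2.1e-05). Lefty1, which lies close by on chromosome 1, had 55.9, 55.1 and 51.0 TPM in XX ESC, against 54.1, 61.7 and 69.0 TPM in XY ESC. The libraries of the groups overlapped, and the difference was -0.18 with a 95% interval of -0.53 to 0.17 (limma, adjusted p = 0.387).

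Nodal had 49.7, 45.6 and 40.4 TPM in XX ESC, against 31.7, 33.3 and 33.5 TPM in XY ESC, so the ligand was higher in every XX library. The difference was 0.45 ± 0.11 (SE, limma, adjusted p = 0.00484). Tdgf1, the co-receptor, had 1289, 1176 and 1435 TPM in XX ESC, against 1112, 1202 and 1083 TPM in XY ESC. Its libraries overlapped, and its difference of 0.20 ± 0.08 (SE) was just past the threshold (limma, adjusted p = 0.0479). Smad7, the inhibitory SMAD, had 47.0, 37.7 and 41.6 TPM in XX ESC, against 31.7, 32.8 and 32.4 TPM in XY ESC, a difference of 0.37 ± 0.13 (SE, limma, adjusted p = 0.0320) without overlap.

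Skil, the SMAD co-repressor, went the other way, with 38.4, 39.3 and 33.7 TPM in XX ESC, against 59.9, 58.2 and 45.6 TPM in XY ESC. The groups did not overlap, and the difference was -0.54 ± 0.09 (SE, limma, adjusted p = 4.4e-04). Among the BMP targets, Id2 had 44.4, 46.8 and 24.3 TPM in XX ESC, against 15.0, 16.99 and 12.9 TPM in XY ESC. One XX library, ESC 3, was lower than the other XX libraries but still above every XY library, and the difference was 1.26 ± 0.19 (SE), or 2.39-fold (limma, adjusted p = 1.3e-04). Id1, Id3 and the pseudoreceptor gene Bambi overlapped between groups and did not pass the test, with differences of 0.01 (95% interval -0.59 to 0.60), 0.18 (-0.34 to 0.70) and 0.09 (-0.10 to 0.28).

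The calls of Tdgf1 and Smad7 depended on the libraries and settings used. Without ESC 1, 3, 4 or 6 the adjusted p of Tdgf1 was 0.0927, 0.194, 0.120 and 0.146, and without ESC 1, 3, 4, 5 or 6 that of Smad7 was 0.128, 0.0603, 0.0804, 0.0586 and 0.0685. Tdgf1 also lost its call with no filter (0.0796), median-ratio scaling (0.186, with a difference of 0.13), no trend (0.0702) and the compared labels alone (0.103), and Smad7 with no filter (0.0614). Markers moved with this contrast too: 3 of 5 pluripotency markers were higher in XX ESC, with sums of 2953 to 3336 TPM, against 2279 to 2442 TPM in XY ESC, and mesoderm markers summed to 11.2 to 12.2 TPM, against 7.44 to 8.43 TPM, with 1 of 3 higher and 1 lower. Fibroblast markers summed to 18.6 to 23.2 TPM in XX ESC and 23.4 to 26.1 TPM in XY ESC, with 2 of 11 higher and 2 lower. The part of these markers in the 6 calls was not tested except for fibroblasts, with whose covariate 6 of the 10 genes passed.

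The same contrast was made in EGC of the same stage, E11.5 XX against E11.5 XY. Here 3 of the 10 genes were higher and 2 lower in XX EGC, when 49.6% of all genes did so (26.2% higher and 23.4% lower). In 8 of the 10 genes the libraries did not overlap, against 70.5% of all genes, so neither count sets the 10 genes apart. The median difference was -0.04 over the 10 genes and 0.02 over all genes. With 2 XX libraries, the spread is largely that of the other labels in the fit.

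Both Lefty genes were higher in XX EGC. Lefty2 had 116 and 120 TPM in XX EGC, against 25.4, 17.2 and 25.1 TPM in XY EGC, and the groups stood far apart. The difference was 2.36 ± 0.18 (SE), or 5.12-fold (limma, adjusted p = 7.0e-07). Lefty1 had 114 and 100 TPM in XX EGC, against 55.8, 46.3 and 49.9 TPM in XY EGC, a difference of 1.06 ± 0.18 (SE), or 2.09-fold (limma, adjusted p = 3.7e-04). Tdgf1 had 1257 and 1309 TPM in XX EGC, against 930, 856 and 936 TPM in XY EGC. Every XX library was higher, and the difference was 0.50 ± 0.08 (SE, limma, adjusted p = 3.4e-04).

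Skil had 27.4 and 28.9 TPM in XX EGC, against 58.2, 61.7 and 56.5 TPM in XY EGC, and the groups stood far apart. It fell by 1.04 on the log2 scale (SE 0.11, limma, adjusted p = 6.1e-06). Bambi had 2.53 and 2.50 TPM in XX EGC, against 4.46, 4.79 and 4.80 TPM in XY EGC, again without overlap, and fell by 0.69 (SE 0.10, limma, adjusted p = 7.8e-05). At these low levels the pseudocount of 1 TPM shrinks the difference.

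Nodal had 43.6 and 38.0 TPM in XX EGC, against 51.6, 51.8 and 43.5 TPM in XY EGC, an overlap of 1 library on each side. Its difference of -0.26 (95% interval -0.52 to 0.01) did not pass (limma, adjusted p = 0.0987). Smad7 and Id3 did not overlap between groups but missed the threshold, at 0.36 (95% interval 0.05 to 0.67, limma, adjusted p = 0.0545) and -0.65 (-1.24 to -0.07, limma, adjusted p = 0.0606). Id2 differed by -0.21 (95% interval -0.66 to 0.25) and Id1 by 0.13 (-0.54 to 0.80), both short of the threshold. Other settings moved the borderline genes past the threshold, each in the direction given. Smad7 passed with median-ratio scaling, with quantile scaling, with the compared labels alone and without EGC 5 (adjusted p = 0.0480, 0.0332, 0.0393 and 0.0413). Nodal passed with median-ratio scaling and without EGC 6 (0.0397 and 0.0482), and Id3 with quantile scaling and with the compared labels alone (0.0435 and 0.0134). Pluripotency markers summed to 2988 to 3241 TPM in XX EGC, against 2394 to 2538 TPM in XY EGC, with 2 of 5 higher, and fibroblast markers to 42.5 to 45.2 TPM, against 38.6 to 88.9 TPM, with 2 of 11 higher and 1 lower. Germ cell markers summed to 124 to 135 TPM in XX EGC, against 152 to 159 TPM in XY EGC, with 2 of 6 higher and 3 lower. Of 3 mesoderm markers 1 was higher, and of 5 primitive endoderm markers 1 was higher and 1 lower. The part of the pluripotency, germ cell, mesoderm and primitive endoderm markers in these results was not tested.

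Whether the XX minus XY difference itself differed between EGC and ESC was tested as an interaction in the same limma fit. Of the 10 genes 6 passed, 2 with a higher and 4 with a lower value in EGC, when 15.6% of all genes did (6.08% higher and 9.51% lower). The median interaction was -0.25 over the 10 genes and -0.04 over all genes tested.

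Lefty1 had an XX minus XY difference of 1.06 in EGC and -0.18 in ESC, an interaction of 1.24 ± 0.24 (SE, limma, adjusted p = 0.00734). Lefty2 was higher in XX cells of both kinds, by 2.36 in EGC and 1.35 in ESC, an interaction of 1.01 ± 0.24 (SE, limma, adjusted p = 0.0172). Skil was lower in XX cells of both kinds, by differences of -1.04 in EGC and -0.54 in ESC, an interaction of -0.50 ± 0.14 (SE, limma, adjusted p = 0.0329).

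Id2 behaved otherwise, with a difference of -0.21 in EGC and 1.26 in ESC, an interaction of -1.46 ± 0.28 (SE, limma, adjusted p = 0.00696). Nodal had -0.26 in EGC and 0.45 in ESC, an interaction of -0.70 ± 0.16 (SE, limma, adjusted p = 0.0154), and Bambi had -0.69 in EGC and 0.09 in ESC, an interaction of -0.78 ± 0.13 (SE, limma, adjusted p = 0.00350). Tdgf1 (0.30, adjusted p = 0.0828), Id3 (-0.83, 0.132), Id1 (0.12, 0.867) and Smad7 (-0.01, 0.978) did not pass in limma. The value of Smad7 turned positive under median-ratio and quantile scaling. Lefty2 lost its call without EGC 7 or EGC 9 (adjusted p = 0.0619 and 0.0567), Nodal without EGC 9 (0.0670), and Skil with no filter (0.0575) and without any of 6 libraries, EGC 4, 5, 7 or 9 or ESC 1 or 2 (0.0503 to 0.124). Tdgf1 passed without ESC 3 (0.0241).

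**Figure D2:**
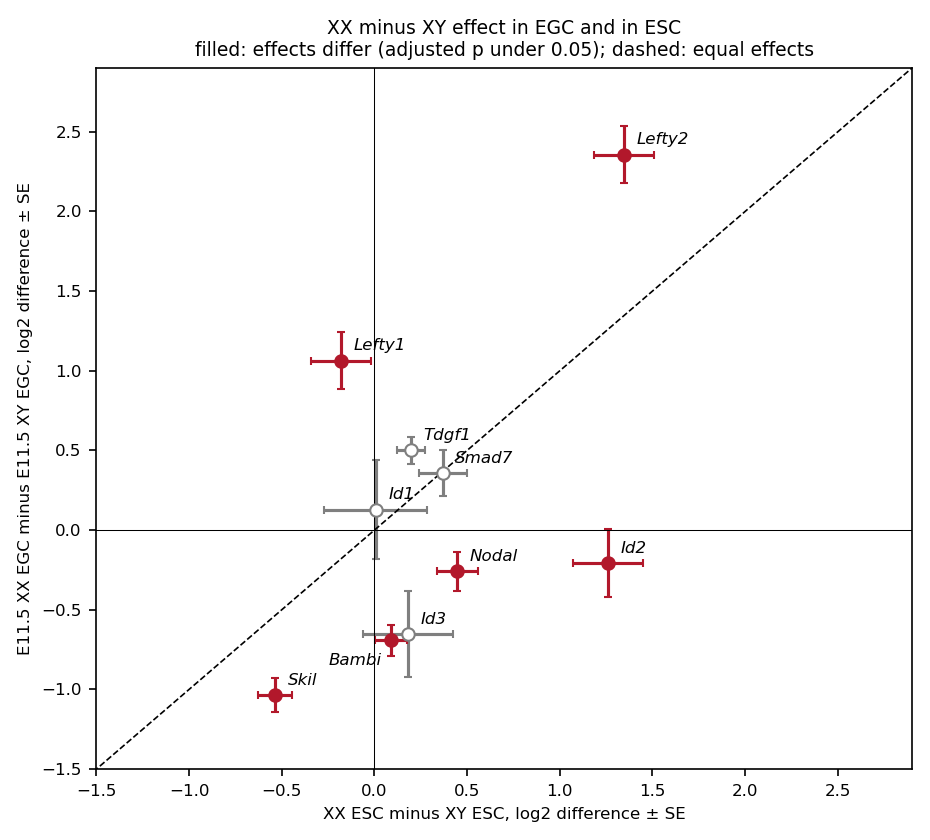
XX minus XY difference of each gene on the log2(TPM + 1) scale in E11.5 EGC (y axis) against ESC (x axis), with bars of 1 SE; filled points passed the test of the difference between both, and the dashed line marks equal differences. Lefty2 (2.36 in EGC, 1.35 in ESC) and Lefty1 (1.06, -0.18) lie above the line, and Id2 (-0.21, 1.26) lies furthest below it.

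Lefty1 (chr1:180935022-180938400, plus strand) and Lefty2 (chr1:180893108-180899103, plus strand, both GRCm38, GENCODE M21) are similar genes that lie close together. Their coding sequences are 91.8% identical, and 281 windows of 50 bases are shared between the transcripts, 17.9% of those of Lefty1 and 11.6% of those of Lefty2. How reads that match both were counted is not given in the sources used here, so the split between the pair is uncertain. The ratio of Lefty2 to Lefty1 in TPM was 1.02 and 1.20 in E11.5 XX EGC, 0.958 in the XO library, 0.529, 0.456 and 0.532 in E12.5 XY EGC and 0.456, 0.371 and 0.503 in E11.5 XY EGC. It was 1.57, 1.61 and 2.06 in XX ESC, against 0.572, 0.630 and 0.5683 in XY ESC. Every XX library thus had more Lefty2 than Lefty1, and every XO and XY library had less. The sum of both is not free of the split, because TPM is scaled by transcript length. The longest transcripts have 1620 bases for Lefty1 and 2473 for Lefty2. The sum was 230 and 220 TPM in E11.5 XX EGC and 71.2 TPM in the XO library. For XY EGC it was 69.7, 104 and 62.3 TPM at E12.5 and 81.2, 63.5 and 75.1 TPM at E11.5. In ESC it was 144, 144 and 156 TPM in XX cells, against 85.0, 101 and 108 TPM in XY cells, so it was higher in XX libraries of both kinds without overlap. The ratio of Nodal to the Lefty sum was 0.172 to 0.189 in E11.5 XX EGC, against 0.579 to 0.815 in E11.5 XY EGC. In ESC these ratios overlapped, at 0.259 to 0.346 in XX cells, against 0.309 to 0.373 in XY cells.

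**Figure D3:**
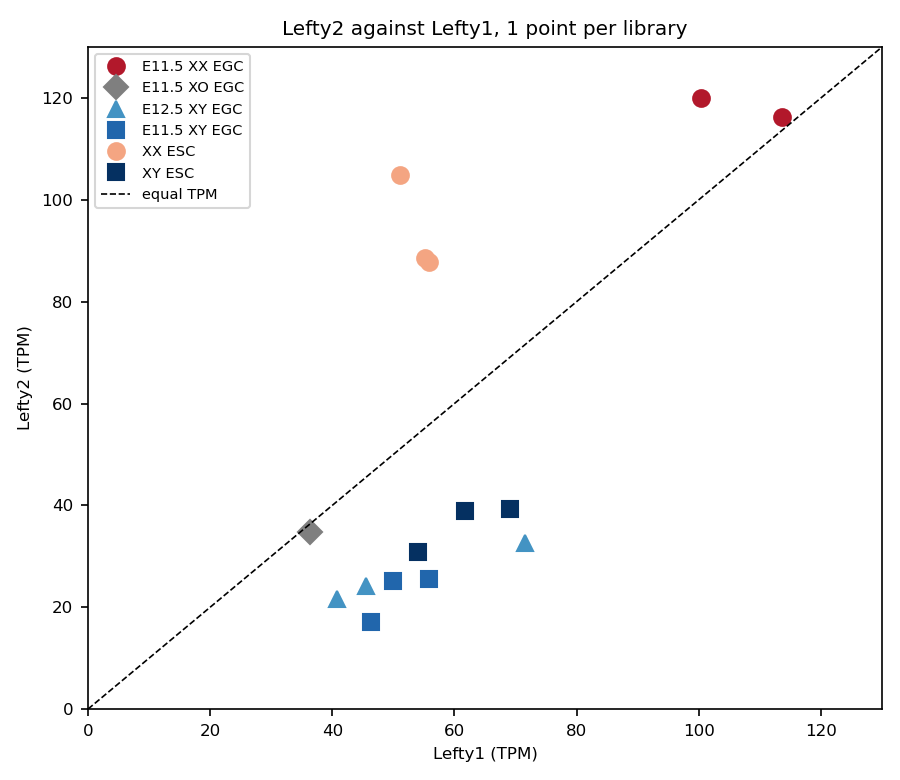
TPM of Lefty2 (y axis) against TPM of Lefty1 (x axis) in each of the 15 libraries, with a dashed line at equal TPM. All 5 XX libraries lie above the line, and the XO library, with a ratio of 0.958, and all XY libraries lie below it.

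E11.5 XO EGC had 1 library, so its values are a description with no test. Set beside E11.5 EGC of the other karyotypes, the XO library was above both ranges for 2 genes, Tdgf1 (1561 TPM) and Smad7 (31.2 TPM). It was below both for 4 genes, with Nodal at 36.2 TPM, Lefty1 at 36.3 TPM, Id2 at 15.1 TPM and Id3 at 2.26 TPM. It lay between both for 3 genes, Lefty2 (34.8 TPM), Skil (40.3 TPM) and Bambi (3.08 TPM). Id1, at 14.1 TPM, was within the XX range and just below the XY range. Lefty2 in the XO library was nearer to the XY range, and Skil was about midway. The Id2 value stands out, because both other E11.5 labels were at 42.4 TPM or more.

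Among XY EGC, libraries labelled E12.5 were set against libraries labelled E11.5. If each label holds 1 line, stage and line cannot be told apart. Of the 10 genes 1 was higher and 3 were lower at E12.5, when 37.7% of all genes passed (26.3% higher and 11.4% lower). In 4 of the 10 the libraries did not overlap, against 50.5% of all genes. The median difference was 0.05 over the 10 genes and 0.10 over all genes tested.

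Id2 had 14.7, 13.9 and 16.5 TPM at E12.5, against 49.6, 56.0 and 52.9 TPM at E11.5, with a wide gap between the stages. It fell by 1.75 (SE 0.19) on the log2 scale, so TPM + 1 at E11.5 was 3.36-fold that at E12.5 (limma, adjusted p = 5.6e-05). Bambi had 2.94, 2.73 and 3.04 TPM at E12.5, against 4.46, 4.79 and 4.80 TPM at E11.5, and fell by 0.54 (SE 0.09, limma, adjusted p = 5.4e-04). Nodal had 39.3, 33.7 and 29.1 TPM at E12.5, against 51.6, 51.8 and 43.5 TPM at E11.5, and fell by 0.52 (SE 0.11, limma, adjusted p = 0.00301). None of these 3 genes overlapped between stages.

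Smad7 was the gene that was higher at E12.5, with 42.5, 29.3 and 30.1 TPM, against 24.3, 26.1 and 20.4 TPM at E11.5. The difference was 0.49 ± 0.13 (SE, limma, adjusted p = 0.00969), and EGC 1 was well above the other E12.5 libraries. Without EGC 1 the difference was 0.33 (limma, adjusted p = 0.0353), and no other library left out gave an adjusted p above 0.0441. Tdgf1 (0.08), Lefty1 (0.01), Lefty2 (0.20), Skil (-0.01), Id1 (0.35) and Id3 (0.20) overlapped between stages and did not pass. Lefty1 at E12.5 ranged from 40.7 to 71.5 TPM and Id1 from 13.6 to 29.02 TPM, so these genes varied more within the stage than between stages. The values of Tdgf1 and Lefty1 turned negative under median-ratio and quantile scaling.

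Markers of other cell types moved with the stage as well. Of 11 fibroblast markers 1 was higher and 4 were lower at E12.5, with sums of 30.5 to 38.0 TPM at E12.5, against 88.9, 39.5 and 38.6 TPM at E11.5. Mesoderm markers summed to 9.75 to 12.6 TPM at E12.5, against 6.81 to 7.11 TPM at E11.5, with 2 of 3 higher. Primitive endoderm markers summed to 19.97 to 26.02 TPM, against 11.3 to 16.8 TPM, with 2 of 5 higher, and of 6 germ cell markers 3 were higher and 1 lower. With the fibroblast covariate 4 of the 10 genes passed, and the part of the other markers was not tested.

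Id1 and Id3 ranked the libraries within each label in the same order. Id2 ranked them in another order under each label of 3 libraries. In E11.5 XX EGC all 3 genes were higher in EGC 7 than in EGC 9. Between labels, Id2 and Id3 were both called higher in E11.5 XY EGC than in XY ESC. At E12.5, Id1 was at 29.02, 23.5 and 13.6 TPM and Id3 at 11.8, 10.8 and 5.72 TPM, and EGC 3 was the lowest of the 3 libraries for both and the highest for Id2 (16.5 TPM). Id2 made up 63.8% and 69.9% of the summed TPM of the 3 genes in E11.5 XX EGC, 48.1% in the XO library, 26.5%, 28.9% and 46.0% in E12.5 XY EGC and 64.7%, 73.0% and 68.0% in E11.5 XY EGC. It made up 72.7%, 77.3% and 46.7% in XX ESC, against 50.1%, 47.6% and 38.6% in XY ESC. The lowest XX share, in ESC 3, came with the highest Id1 (22.0 TPM) and Id3 (5.78 TPM) among ESC. No window of 50 bases is shared between the transcripts of these 3 genes, so their counts are not mixed in the way those of the Lefty pair may be.

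**Figure D4:**
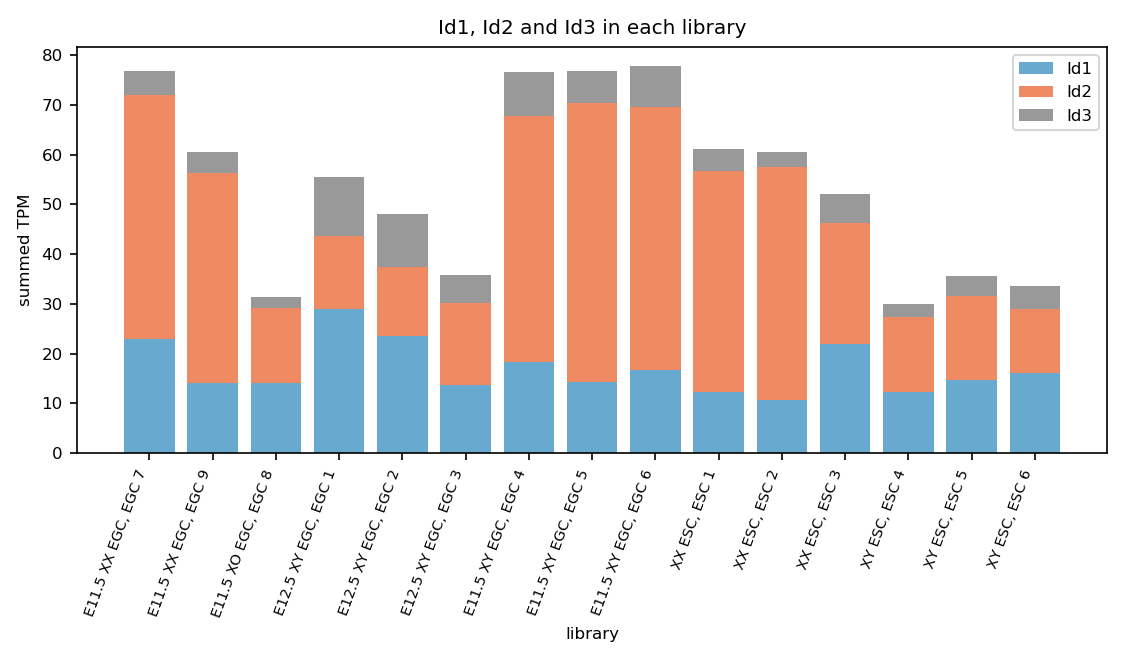
Stacked TPM of Id1, Id2 and Id3 (y axis, from 0) in each library (x axis). The Id2 portion is 42.4 TPM or more in E11.5 XX EGC, E11.5 XY EGC, ESC 1 and ESC 2, and 24.3 TPM or less in the other libraries.

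EGC were set against ESC within each karyotype and stage, which is the contrast of cell source in the design. For E11.5 XY EGC against XY ESC, 4 of the 10 genes were higher and 3 lower, when 25.6% of all genes passed (12.2% higher and 13.4% lower). In 7 of the 10 the libraries did not overlap, against 44.3% of all genes. The E11.5 XY EGC libraries are those already used against E12.5 and XX EGC, and the XY ESC libraries those used against XX ESC, so these comparisons are not independent.

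Id2 was at 49.6, 56.0 and 52.9 TPM in the E11.5 XY EGC libraries, against 15.0, 16.99 and 12.9 TPM in XY ESC, a difference of 1.76 ± 0.19 (SE), or 3.38-fold (limma, adjusted p = 6.1e-05). Id3 was at 8.84, 6.41 and 8.15 TPM in the EGC libraries, against 2.70, 4.04 and 4.45 TPM in those of ESC, a difference of 0.91 ± 0.24 (SE, limma, adjusted p = 0.0168). Bambi was at 4.46, 4.79 and 4.80 TPM in the EGC libraries, against 3.16, 3.14 and 2.77 TPM in those of ESC, a difference of 0.50 ± 0.09 (SE, limma, adjusted p = 0.00157). These 3 genes of the BMP branch were higher in every EGC library, while Id1 overlapped (0.19, 95% interval -0.41 to 0.78).

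In the NODAL branch the genes split. Nodal was higher in EGC, by 0.56 ± 0.11 (SE, limma, adjusted p = 0.00334), with 51.6, 51.8 and 43.5 TPM in EGC and 31.7, 33.3 and 33.5 TPM in ESC. Tdgf1 fell by 0.32 (SE 0.08, limma, adjusted p = 0.00890), Lefty2 by 0.68 (SE 0.16, limma, adjusted p = 0.00967) and Smad7 by 0.44 (SE 0.13, limma, adjusted p = 0.0247). Lefty2 was at 25.4, 17.2 and 25.1 TPM in the EGC libraries, against 30.9, 38.9 and 39.2 TPM in those of ESC. Lefty1 (-0.27) and Skil (0.12) overlapped and did not pass.

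Fibroblast markers moved with this contrast: they summed to 88.9, 39.5 and 38.6 TPM in EGC 4, 5 and 6, against 23.5, 26.1 and 23.4 TPM in XY ESC, and of the 11 tested 7 were higher and 1 lower. With their mean as a covariate 3 of the 7 calls were kept, those of Id2, Bambi and Lefty2. Every EGC library had a higher marker sum than every ESC library. In each comparison of EGC with ESC this covariate and the contrast are therefore hard to tell apart. The differences whose calls were lost were 0.38 for Nodal, -0.39 for Tdgf1, -0.56 for Smad7 and 0.53 for Id3 (limma, adjusted p = 0.164, 0.0652, 0.104 and 0.384), so those of Tdgf1 and Smad7 were larger than without the covariate and those of Nodal and Id3 smaller. Smad7 also lost its call with no filter (0.0533) and without EGC 6, ESC 4, 5 or 6 (0.0986, 0.0553, 0.0590 and 0.0657), and Id3 without EGC 4 or ESC 4 (0.0565 and 0.0694).

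For E12.5 XY EGC against XY ESC, 1 of the 10 genes was higher and none lower, when 3.36% of all genes passed (3.19% higher and 0.166% lower). Id3 was at 11.8, 10.8 and 5.72 TPM in E12.5 XY EGC, against 2.70, 4.04 and 4.45 TPM in XY ESC. Each EGC library was higher, though EGC 3 was close to the ESC range, and the difference was 1.11 ± 0.24 (SE), or 2.15-fold (limma, adjusted p = 0.0316). Id2, at 14.7, 13.9 and 16.5 TPM in EGC and 15.0, 16.99 and 12.9 TPM in ESC, differed by 0.01 (95% interval -0.40 to 0.42). Tdgf1 did not overlap either, making 2 of the 10 genes against 27% of all genes, but its difference of -0.24 did not pass (limma, adjusted p = 0.0907). Differences of the other genes ran from -0.47 for Lefty2 to 0.53 for Id1, short of the threshold. The Id3 call was lost without EGC 1 or 2 or ESC 4, 5 or 6 (adjusted p = 0.130, 0.100, 0.104, 0.0844 and 0.0612), with no filter (0.0741), median-ratio scaling (0.0557), quantile scaling (0.0751) or the compared labels alone (0.0879), and with the fibroblast covariate (0.0737, with a difference of 0.98), when these markers summed to 30.5 to 38.0 TPM in E12.5 XY EGC and 23.4 to 26.1 TPM in XY ESC.

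For E11.5 XX EGC against XX ESC, 1 of the 10 genes was higher and 1 lower, when 12.54% of all genes passed (4.09% higher and 8.44% lower). In 5 of the 10 the libraries did not overlap, against 46% of all genes. Lefty1 was at 114 and 100 TPM in XX EGC, against 55.9, 55.1 and 51.0 TPM in XX ESC, a difference of 0.97 ± 0.18 (SE), or 1.96-fold (limma, adjusted p = 0.00663). Lefty2, at 116 and 120 TPM in EGC and 87.8, 88.5 and 105 TPM in ESC, did not overlap either, but its difference of 0.33 (95% interval -0.06 to 0.73) did not pass (limma, adjusted p = 0.240). Skil was at 27.4 and 28.9 TPM in the EGC libraries, against 38.4, 39.3 and 33.7 TPM in those of ESC, and fell by 0.38 (SE 0.11, limma, adjusted p = 0.0319). Smad7 (-0.45, adjusted p = 0.0568) and Bambi (-0.28, 0.0708) did not overlap and missed the threshold in limma, though Bambi passed with no trend (0.0373) and without ESC 3 (0.0493). Nodal (-0.15), Tdgf1 (-0.01), Id1 (0.31), Id2 (0.29) and Id3 (0.07) overlapped.

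Fibroblast markers were again higher on the EGC side, with sums of 45.2 and 42.5 TPM in XX EGC, against 18.6 to 23.2 TPM in XX ESC, and 5 of 11 passed the test. With their mean as a covariate the difference was 0.74 for Lefty1 and -0.37 for Skil, and neither passed (limma, adjusted p = 0.189 and 0.272). Here too the sums did not overlap, so this covariate and the contrast are hard to tell apart. Lefty1 also lost its call without EGC 7 (0.0669). Skil lost its call without EGC 7 or 9 or ESC 1 or 2 (0.192, 0.113, 0.0897 and 0.0916), with no filter (0.0545), with quantile scaling (0.0524) and with the compared labels alone (0.0800).

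**Figure D5:**
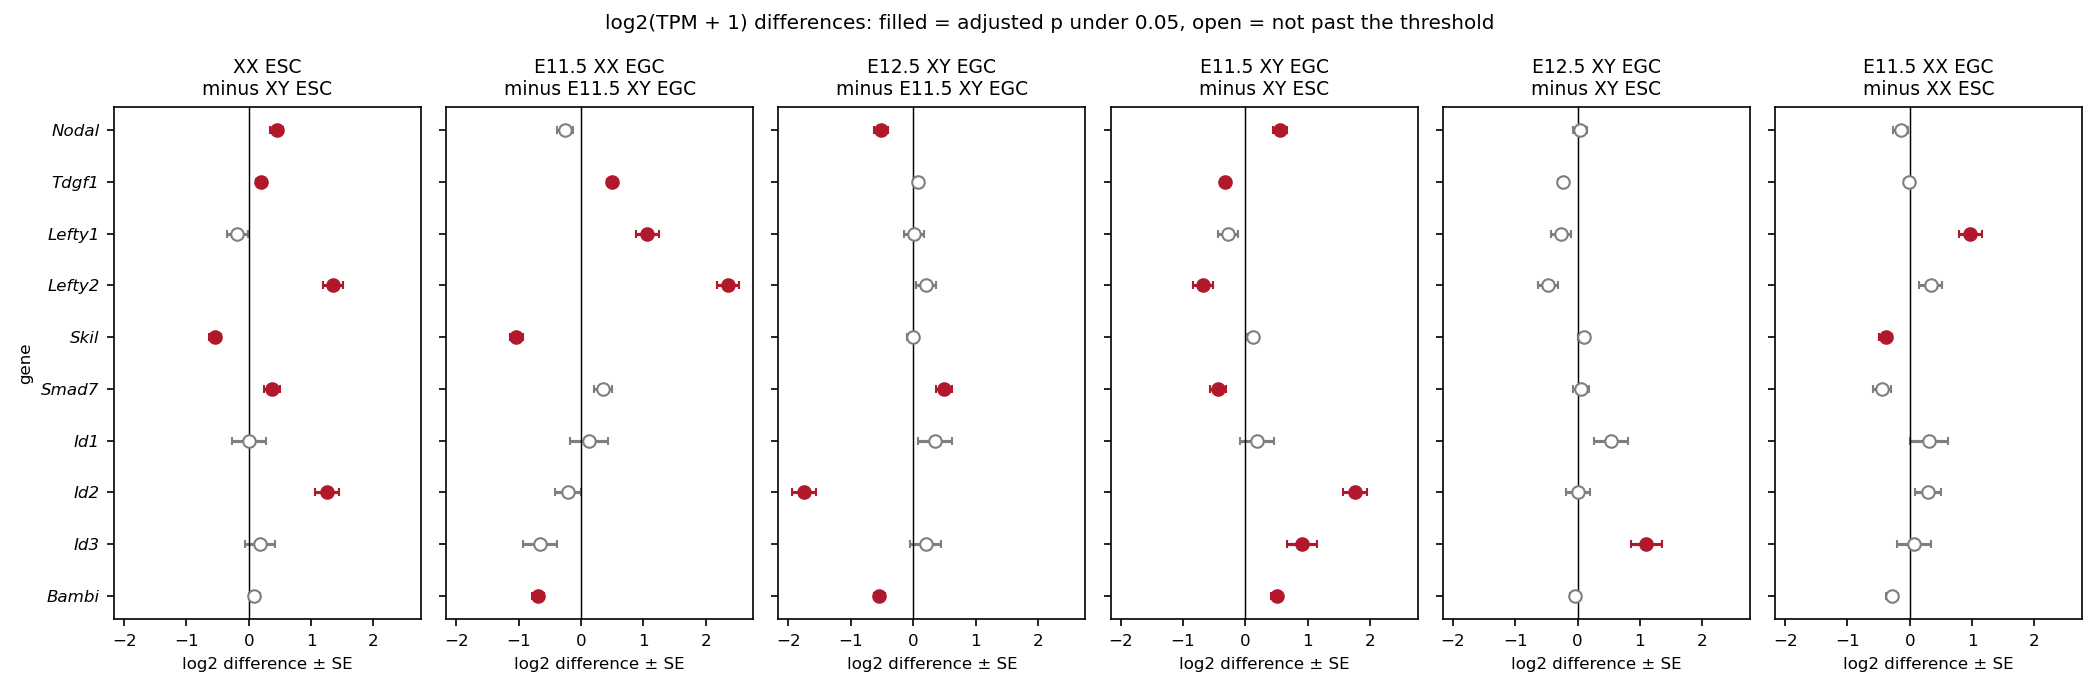
Difference of each gene on the log2(TPM + 1) scale (x axis) with bars of 1 SE in the 6 comparisons of header labels, with filled points past the threshold of 0.05. Id2 lies at 1.26 for XX ESC minus XY ESC, -1.75 for E12.5 minus E11.5 XY EGC and 1.76 for E11.5 XY EGC minus XY ESC, and Lefty2 lies highest for E11.5 XX minus E11.5 XY EGC, at 2.36.

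With all 9 EGC libraries, the XO one included, and all 6 ESC libraries, none of the 10 genes passed in limma and all overlapped, when 6 of 12909 genes, or 0.0465%, passed (0.0232% higher and 0.0232% lower) and 0.263% did not overlap. At an unadjusted p under 0.05 there were 1164 genes, 2 of the 10 among them, Smad7 with a difference of -0.34 (adjusted p = 0.464) and Id3 with 0.58 (0.534). Lefty2 ranged from 17.2 to 120 TPM over EGC (median 25.4) and from 30.9 to 105 TPM over ESC (median 63.5). Id2 ranged from 13.9 to 56.0 TPM over EGC (median 42.4) and from 12.9 to 46.8 TPM over ESC (median 20.7). For Lefty2 and Id2, the highest and the lowest library belonged to different labels in both cell types. For Id1 they shared a label, E12.5 XY EGC among EGC and XX ESC among ESC.

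Other genes of the pathways were read from lists of 76 genes by role, 75 of them in the table and 55 at levels that could be tested. In XX ESC against XY ESC, 17 were higher and 11 lower, which is 50.9% of those tested, against 46.6% of all genes. In E11.5 XX EGC against XY EGC, 11 were higher and 10 lower, or 38.2%, against 49.6% of all genes. Neither share is read as a property of the pathways, and the genes named below are examples. Upstream, Gdf3, a NODAL-related ligand that shares its receptors, was higher in XX cells of both kinds (0.60 in EGC, 0.39 in ESC), and so was Pcsk6, a convertase that cleaves the NODAL precursor (0.89 in EGC, 1.09 in ESC). The co-receptor gene Eng was also higher in both (0.67 in EGC, 0.76 in ESC), and so was Bmp6 (0.77 in EGC, 0.44 in ESC), while Bmp7 was lower in both (-0.77 in EGC, -0.71 in ESC). On the list of NODAL and activin ligands 5 were tested. In ESC Gdf3 was the 1 higher gene and 2 were lower, Tgfb1 (-0.70) and Tgfb2 (-0.42). In EGC 2 were higher and 0 lower. Among SMAD partners, Foxh1 was lower in XX cells of both kinds (-0.78 in EGC, -0.84 in ESC), as were the co-repressors Ski (-0.49 in EGC, -0.61 in ESC) and Tgif2 (-0.68 in EGC, -0.33 in ESC). Gsc, a NODAL target of the gastrula, was higher in both (0.74 in EGC, 1.37 in ESC). On its list of NODAL responsive genes 4 were tested, with 2 higher and 1 lower in ESC and 2 higher in EGC. In ESC Eomes was the other higher gene (0.50) and T the lower one (-0.55), with T under 1 TPM in all ESC libraries. None of the 5 tested SMAD genes passed in ESC, and in EGC Smad3 was higher (0.35) and Smad4 lower (-0.34).

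Id4, the other member of the Id family, moved as Id2 did in each of these tests that both passed. It was lower at E12.5 than at E11.5 (-1.52 ± 0.11, SE), higher in E11.5 XY EGC than in XY ESC (1.69 ± 0.11, SE) and higher in XX ESC than in XY ESC (0.71 ± 0.11, SE), with an interaction of -1.56 ± 0.17 (SE). Unlike Id2 it was also called lower in E11.5 XX EGC than in XY EGC (-0.84 ± 0.13, SE). Of the 55 genes, 17 were higher and 4 lower at E12.5 than at E11.5, or 38.2%, close to the 37.7% of all genes. Among them were Bmp4 at 1.62, Hand1, a BMP target of the mesoderm, at 1.44, the BMP antagonist gene Nog at 1.12 and Smad3 at 0.53. Bmp4, a ligand upstream of the Id genes, was at 8.18 to 18.5 TPM at E12.5, against 2.82 to 3.53 TPM at E11.5. Id2 and Id4 were lower at E12.5, and Id1 (0.35) and Id3 (0.20) did not pass. A link between Bmp4 and these genes was not tested. In E11.5 XY EGC against XY ESC, 4 were higher and 10 lower, or 25.5%, against 25.6% of all genes, among them Fst, a secreted inhibitor of activin, at 1.12 and Bmp4 at -0.92. In E12.5 XY EGC against XY ESC 4 were higher and none lower, or 7.27%, against 3.36% of all genes. In E11.5 XX EGC against XX ESC none was higher and 9 lower, or 16.4%, against 12.54% of all genes, with 4 of the 8 tested receptor genes among these. The interaction was lower for 7, Fst (-1.39), Gata2 (-1.24) and Id4 among them, and higher for none, or 12.7%, against 15.6% of all genes. Over all EGC and ESC libraries, none of 45 tested passed in limma, against the 0.0465% of all genes given above.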

How the data were processed

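Polyadenylated RNA was measured in 9 EGC and 6 ESC libraries of mouse. The authors deposited 1 table of TPM values per gene and library, and each column sums to 1000000. The submitters' processing notes name the build GRCm38 (mm10) and, without role or order, STAR 2.3.0, HTSeq 0.6.0, Picard 1.100, edgeR 3.8.6 and SAMtools 0.1.18.0. Whether counting used strand is not given in the sources used here. TPM carries no depth, so no counting interval was computed and the spread between libraries is the error given.

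Log2(TPM + 1) values were fitted with limma 3.58.1 in R 4.3.3. Its moderated test was 2-sided and used a trend of variance on mean, with Benjamini-Hochberg adjustment over every gene tested and a threshold of 0.05. Comparisons of header labels used 1 mean per label, over genes reaching 1 TPM in 2 or more libraries. The comparison of EGC with ESC had no covariate and used genes reaching 1 TPM in 6 or more. All columns were used. The fit was tested on simulated data, and tables and plots were made in Python 3.11.15. Alternatives were a pseudocount of 0.1, no filter, median-ratio and quantile scaling, no trend, a fibroblast marker covariate, a fit of the compared labels alone, XX karyotype as a factor, correlation of libraries under 1 label, and leaving out each library.

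All 10 genes are named in every comparison. Other pathway genes are named from the 3 with the smallest p per role list and comparison, and the 3 genes most like each of the 10 by Pearson correlation are given, except 1 that is not reported here. The genes and lists were chosen with earlier results of these data known. Karyotype and stage come from the table header and not from the sample labels. Gene positions are from GENCODE M21 and promoters from RefSeq.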

Additional observations from a re-analysis of the deposited data

Results flagged for a closer look

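Smad7 was highest in EGC 1, an E12.5 XY EGC library, at 42.5 TPM, far above the next of the 9 EGC libraries relative to their whole range. The rule was run on each of the 10 genes in EGC and in ESC, and it flagged no other library. Chance alone marks about 1 in 20 such groups, and the EGC libraries belong to several labels.

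The difference of XX minus XY was not the same in EGC as in ESC for 6 genes, by a limma test of the difference itself (EGC effect minus ESC effect, on the log2 scale). It was 1.24 for Lefty1, 1.01 for Lefty2, -0.70 for Nodal, -0.50 for Skil, -1.46 for Id2 and -0.78 for Bambi, with adjusted p of 0.00734, 0.0172, 0.0154, 0.0329, 0.00696 and 0.00350. For Lefty2 and Skil the sign was shared by both cell types, and for Lefty1, Nodal, Id2 and Bambi 1 of the 2 effects did not pass the test by itself.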

How the results depend on the processing

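Over 217 tests of a called difference under settings that keep all libraries, 196 kept direction and call, 21 lost the call and none changed sign. Of 353 tests of a difference that was not called, 320 stayed, 7 passed and 26 changed sign. With 1 library left out, 175 of 209 called differences stayed and 34 lost the call, and of 391 others 353 stayed, 4 passed and 34 changed sign. Where an EGC label of 2 libraries loses 1, the lone library is assumed to vary like the others. No paired analysis was possible because replicate numbers were given in accession order and no label pairs the libraries. The cause of each change below was not tested.

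For E11.5 XY EGC minus XY ESC, the fibroblast covariate gave 3 of the 10 genes and 1138 genes in all, against 7 and 3553. For E12.5 XY EGC minus XY ESC, 0 of the 10 genes passed with no filter, median-ratio scaling, quantile scaling, the fibroblast covariate or the compared labels alone, with 231, 206, 114, 172 and 68 genes in all, against 1 and 466. For E11.5 XX EGC minus XX ESC, 1 of the 10 passed with no filter, with quantile scaling and with the compared labels alone (282 genes in all) and 0 with the fibroblast covariate (62 genes in all), against 2 and 1740. For EGC minus ESC, 2 genes in all passed with no filter, 0 with the fibroblast covariate, 11 with XX karyotype as a factor and 0 with correlated libraries, against 6, and 0 of the 10 throughout. Leaving out 1 library, the genes in all numbered 2219 to 2986 for E11.5 XY EGC minus XY ESC, 29 to 770 for E12.5 XY EGC minus XY ESC (0 to 1 of the 10), 352 to 2323 for E11.5 XX EGC minus XX ESC (0 to 3 of the 10), 700 to 2965 for the interaction (3 to 7 of the 10) and 2 to 21 for EGC minus ESC. The share of higher among called genes was 58.5% for XX ESC minus XY ESC, against 45.9% with quantile scaling. It was 69.8% for E12.5 minus E11.5 XY EGC, against 47.5% under median-ratio scaling and 50.4% under quantile scaling, and 95.1% for E12.5 XY EGC minus XY ESC, against 64.1% and 70.2%. It was 32.6% for E11.5 XX EGC minus XX ESC, against 45.1% and 47.8%, 39.0% for the interaction, against 50.5% with quantile scaling, and 50% for EGC minus ESC, against 37.5% with either.

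Every sign change was of a difference that was not called. With median-ratio scaling these were -0.051 for Id1 in XX ESC minus XY ESC, -0.034 for Tdgf1 and -0.098 for Lefty1 in E12.5 minus E11.5 XY EGC, -0.057 for Nodal, -0.046 for Smad7 and -0.085 for Id2 in E12.5 XY EGC minus XY ESC, 0.033 for Tdgf1 in E11.5 XX EGC minus XX ESC and 0.024 for Smad7 in the interaction. With quantile scaling they were -0.091 for Id1 and -0.039 for Bambi in XX ESC minus XY ESC, -0.025 for Tdgf1 and -0.030 for Lefty1 in E12.5 minus E11.5 XY EGC, -0.053 for Nodal, -0.036 for Smad7 and -0.12 for Id2 in E12.5 XY EGC minus XY ESC, 0.064 for Smad7 in the interaction and -0.0079 for Lefty1 in EGC minus ESC. With the fibroblast covariate they were -0.14 for Id1 in E11.5 XY EGC minus XY ESC, -0.019 for Nodal in E12.5 XY EGC minus XY ESC, -0.28 for Id3 in E11.5 XX EGC minus XX ESC, and -0.20 for Nodal, -0.21 for Lefty1, -0.36 for Id2 and -0.098 for Bambi in EGC minus ESC. Skil was at -0.12 there with XX karyotype as a factor, and Lefty1 at -0.015 with correlated libraries. Leaving out 1 library gave ranges across 0 of -0.29 to 0.20 for Id1 and -0.0014 to 0.37 for Id3 in XX ESC minus XY ESC, and -0.21 to 0.46 for Id1 in E11.5 XX minus E11.5 XY EGC. In E12.5 minus E11.5 XY EGC they were -0.23 to 0.17 for Lefty1 and -0.036 to 0.025 for Skil. Against XY ESC they were -0.0059 to 0.19 for Skil in E11.5 XY EGC, and -0.065 to 0.15 for Nodal, -0.014 to 0.18 for Skil, -0.12 to 0.15 for Smad7 and -0.086 to 0.098 for Id2 in E12.5 XY EGC. In E11.5 XX EGC minus XX ESC they were -0.084 to 0.059 for Tdgf1, -0.031 to 0.64 for Id1, -0.0010 to 0.46 for Id2 and -0.12 to 0.25 for Id3. In the interaction they were -0.22 to 0.46 for Id1 and -0.11 to 0.070 for Smad7, and in EGC minus ESC -0.11 to 0.088 for Lefty1. Depth is unknown, and 2 or 3 libraries per label limit every interval.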

Other observations

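The genes whose log2(TPM + 1) followed each of the 10 most closely over the 15 libraries are given as a description, since the libraries share 6 labels. Lefty2 was followed most closely by Tmem85 (Pearson r = 0.99), Slc25a5, a mitochondrial ADP/ATP carrier (0.97), and Nsdhl, an enzyme of cholesterol synthesis (0.97). Slc25a5 and Nsdhl are X-linked in the mouse. Skil was followed by Klhl24 (0.98), Nras (0.98) and Nbr1 (0.98), and Bambi by Dnajb9, an endoplasmic reticulum chaperone (0.98), Hdac9 (0.96) and Tex9 (0.95). Id2 was followed by Dbt (0.95), Gem (0.94) and D9Ertd402e (0.94), and Nodal by Baz2b (0.92), Lrrc57 (0.90) and Lmo2 (0.89). Tdgf1 was followed by Nhp2l1 (0.93), Hnrnpf (0.92) and Dynll1 (0.91), and Smad7 by Fam81a (0.94), Dcaf12 (0.94) and Kdm1a (0.93).

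The genes close to Lefty1 included Tmem97 (0.87) and Pla2g1b (0.85). Id1 was followed by Mtap7d1 (0.83), Zfp622 (0.81) and Relb (0.79), and Id3 by Ier2, an immediate early gene (0.88), Zfp703 (0.85) and Cdipt (0.84). The closest partner of Lefty2 ranged from 45.6 to 74.4 TPM, against 17.2 to 120 TPM for Lefty2 itself, and that of Id2 from 25.2 to 41.2 TPM, against 12.9 to 56.0 TPM for Id2.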
